A study of Mus musculus with 4 samples.

Results

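The Serpin family of the mouse was followed across the stromal cells of lymph nodes and between mice with and without Notch2 in Ccl19-expressing stroma. Members were all symbols that read Serpin, a clade letter from a to i and a number, with Serping1 left out, which gave 61 genes of 32285 features, and values are given for 60 of them. Droplet-based single-cell RNA sequencing, which counts unique molecular identifiers (UMIs) at transcript 3′ ends, had been run on sorted live CD45- CD31- cells of axillary, brachial and inguinal nodes from female C57BL/6 mice aged 12 weeks. Control 1 carried Ccl19-Cre and the R26R-EYFP reporter, and Notch2 cKO 1 carried Ccl19-Cre, Notch2 fl/fl and R26R-EYFP. These were the libraries of batch 1, each a pool of 6 mice, and the groups of that batch were not littermates. Control 2 carried Notch2 fl/fl and no Cre, and Notch2 cKO 2 carried Ccl19-Cre and Notch2 fl/fl. These were the libraries of batch 2, each a pool of 3 mice from littermate groups. Cre is driven by the Ccl19 promoter, so deletion is limited to cells in which that promoter has been active, and no single mouse can be read from a pool. With 2 pools per group, genotype p-values rest on a spread between pools that the tests estimate with information shared across genes. They measure neither the spread of a single gene alone nor that between mice.

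Serpins share a fold in which an exposed reactive centre loop acts as bait for a protease. After cleavage the loop inserts into the body of the protein and traps the enzyme. Clades A, C, D, E, F, G and I are mostly secreted, such as alpha-1-antitrypsin (the Serpina1 genes of the mouse) and antithrombin (Serpinc1). Clade B members mostly stay in the cytosol and nucleus and protect cells from their own or incoming proteases. Some members inhibit no protease, such as Serpinh1, the endoplasmic reticulum chaperone of collagen, and Serpinf1, pigment epithelium-derived factor. In lymph nodes, fibroblastic reticular cells build the collagen conduits and secrete chemokines for T and B cells.

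Cells were sorted into gates by UMIs of marker genes, none of them a serpin. Of the cells that passed the cell filters, 82.8% to 96.8% per library were fibroblast-like (7567 to 14084 cells). Within these, the Ccl21a-high gate (a T-zone chemokine) held 2658 to 3909 cells per library. The Pi16/Dpp4 gate held 122 to 447. It took cells with at least 3 of the adventitial-type markers Pi16, Dpp4, Cd34, Sema3c, Cd248 and Anxa3, so a cell could enter without Pi16 or Dpp4. The Tnfsf11/Cxcl13 gate (marginal-type) held 102 to 1332 cells and the interferon-chemokine gate (Cxcl9, Cxcl10, Cxcl11, Gbp2) 552 to 1286. The inflammatory gate (Ptgs2, Il6, Lif, Cxcl2) held 129 to 1331 and the medullary-type gate (Inmt, Car3, Cyp2f2, Stc1) 241 to 656. A cell joined the first gate it met, in the order follicular dendritic, Pi16/Dpp4, Tnfsf11/Cxcl13, interferon-chemokine, inflammatory, medullary-type and Ccl21a-high. Cells over the Ccl21a threshold that met an earlier gate are thus not in the Ccl21a-high gate. A gate is a range of marker levels and not a cell type, and 907 to 1078 fibroblast-like cells per library had a Ccl21a share of 80 to 120 UMIs per 10000, near the Ccl21a-high threshold of 100. Batch 1 was shallower, with median UMIs per fibroblast-like cell of 2126 and 2967 against 6628 and 8172 in batch 2, and any pair of libraries shared 21 to 57 cell barcodes. Notch2 itself (ENSMUSG00000027878, mm10 chromosome 3, 98013527 to 98150361, plus strand) stood at 38.7 and 57.9 CPM in controls 1 and 2 and 19.1 and 38.9 CPM in Notch2 cKO 1 and 2 in all fibroblast-like cells, where CPM scales the UMIs of a gene by all UMIs of the summed cells. It was lower in Notch2 cKO within each batch, but control 1 and Notch2 cKO 2 were level, and the log2 fold change was -0.84 (SE 0.19, adjusted p = 0.0952) by the edgeR test used for genotype below and -1.13 (SE 0.23, adjusted p = 0.00949) in Ccl21a-high cells. Counts from the 3′ end check a deletion only if it lowers the whole transcript, and which part of Notch2 is floxed was not given in the sources used here.

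Most of the family was low or not detected in these fibroblasts. In the sum of all fibroblast-like cells 15 members reached 20 CPM in at least 1 library, 10 lay between 1 and 20 CPM in their highest library, and 27 stayed under 1 CPM. A further 8 had no UMI at all (Serpina3a, Serpina3k, Serpina5, Serpina7, Serpinb3c, Serpinb3d, Serpinb6d and Serpinb7). Together the members made up 2406 and 1744 CPM in controls 1 and 2 and 2902 and 2024 CPM in Notch2 cKO 1 and 2. The 3 leading members held 54.4% to 64.2% of that. The libraries of batch 1 stood above those of batch 2, and within each batch the Notch2 cKO library was the higher. Of these totals, Serpina1a to Serpina1e held 18.2 and 36.4 CPM in controls 1 and 2 and 684 and 59.98 CPM in Notch2 cKO 1 and 2. The higher total of Notch2 cKO 1 than of control 1 thus depends on these copies and is not a rise across the family. Since UMIs count transcript ends, CPM does not scale with transcript length, but capture differs between genes, so an order of members is a rough one.

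**Figure D1:**
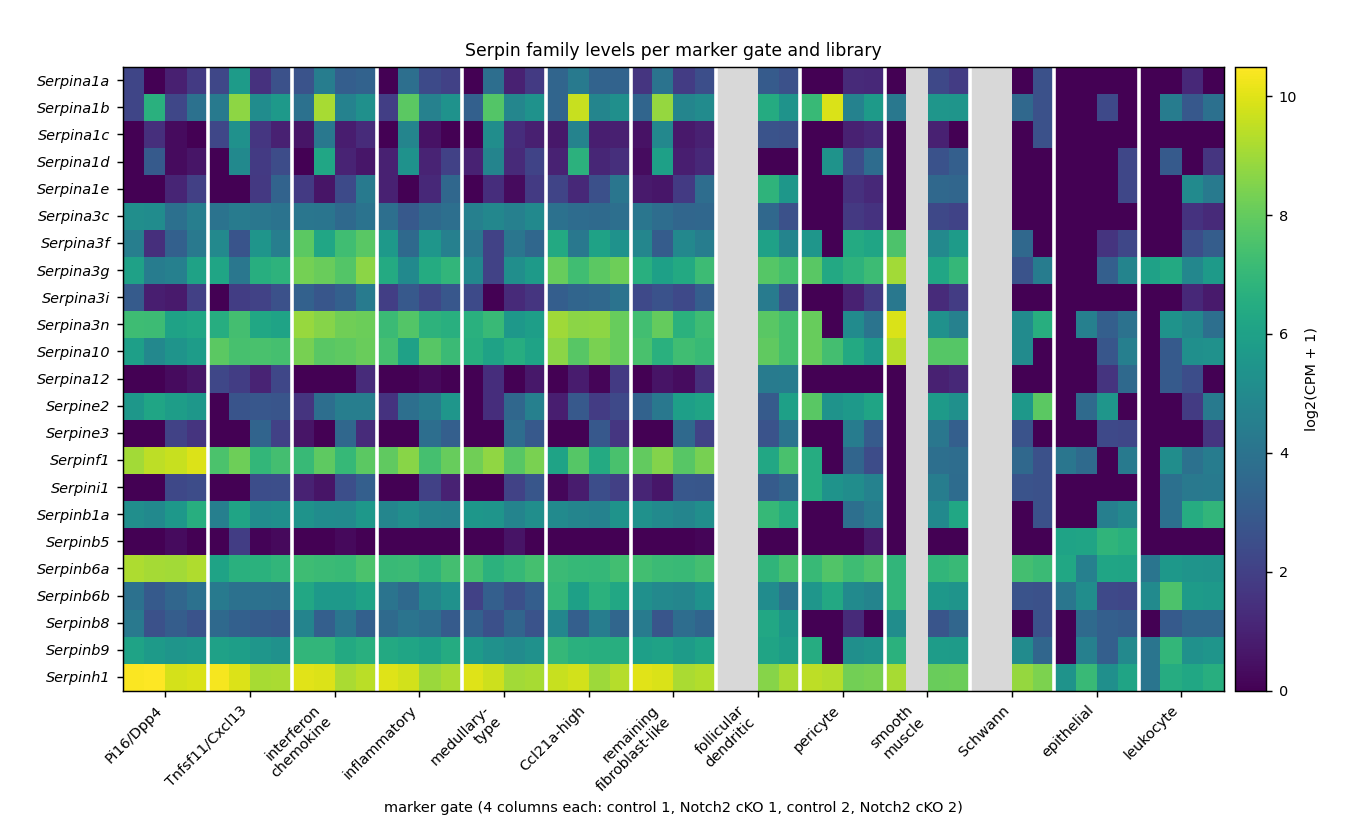
Level of 23 serpins (rows) in 13 marker gates, each with 1 column for each of the 4 libraries, as log2(CPM + 1) by colour, with grey for gates of under 15 cells. Serpinh1 fills the fibroblast gates, Serpinb6a and Serpinf1 are brightest in the Pi16/Dpp4 gate, Serpinb5 lights up in the epithelial gate, and Serpina1b stands out in the Notch2 cKO 1 column of each fibroblast gate.

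Serpinh1 (ENSMUSG00000070436, mm10 chromosome 7, 99345376 to 99353239, minus strand), the chaperone that binds folded procollagen, led the family in each library of all fibroblast-like cells. Its level was 936 and 559.7 CPM in controls 1 and 2 and 947 and 635 CPM in Notch2 cKO 1 and 2. The batches differed more than the genotypes, and the groups overlapped. In the Pi16/Dpp4 gate Serpinh1 ran at 907 to 1432 CPM, in leukocyte-gated cells at 15.7 to 94.3 and in epithelial-gated cells at 36.4 to 138.

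Several members are near-identical copies, which bears on what their counts can mean. Coding sequences of Serpina1a, Serpina1b, Serpina1c, Serpina1d and Serpina1e were 96.3% to 98.5% identical over 10 pairs. Among the 50-base windows of the last 500 transcript bases, where 3′ reads fall, 29.5% of those of Serpina1b also occurred in another gene, as did 41.5% for Serpina1d, 55.4% for Serpina1a, 38.6% for Serpina1c and 16.4% for Serpina1e. The annotated span of Serpina1b (ENSMUSG00000071178, mm10 chromosome 12, 103728156 to 103830373, minus strand) also contains Serpina1d (ENSMUSG00000071177, mm10 chromosome 12, 103763594 to 103773592, minus strand). How reads shared between copies were counted was not given in the sources used here, so the split between these copies is uncertain, while their sum loses at most the shared reads. The Serpina3 copies were farther apart (63.7% to 91.5% over 45 pairs). Of their windows 1.6% in Serpina3f, 2.4% in Serpina3g and 0 in Serpina3n recurred elsewhere, so few of their reads could be shared. In the Serpinb9 cluster the split is again uncertain for Serpinb9d, Serpinb9e, Serpinb9f, Serpinb9g and Serpinb9h (26.6% to 100% of windows shared), which all stayed under 1 CPM, whereas Serpinb9 itself had no shared window.

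The stretch in which the Serpina1 copies differ most is shown because its letters tell their reads apart and because serpins carry the reactive centre loop toward that end of the protein. It is the 60-base window with most differences in the last 300 coding bases (18 of 31 variable columns), and it ends 79 bases before the end of the coding sequence. Sequences are from the GENCODE transcripts of mm10, 5′ to 3′ on the coding strand, coding bases 1170 to 1229 of Serpina1a and 1101 to 1160 of the other copies, with columns that vary between copies in capitals.
Serpina1a: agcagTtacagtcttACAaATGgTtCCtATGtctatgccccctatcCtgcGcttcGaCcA
Serpina1b: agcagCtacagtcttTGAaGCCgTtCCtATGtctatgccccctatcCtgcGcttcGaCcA
Serpina1c: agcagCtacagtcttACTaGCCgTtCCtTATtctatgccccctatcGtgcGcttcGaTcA
Serpina1d: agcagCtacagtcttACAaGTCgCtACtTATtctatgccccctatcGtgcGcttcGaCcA
Serpina1e: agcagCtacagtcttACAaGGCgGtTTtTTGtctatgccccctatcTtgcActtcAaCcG
All 5 copies were listed separately in the files. Serpina1b held 53.6% to 82.7% of their UMIs in the 4 libraries.

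Each gate was then compared with all other fibroblast-like cells of the same libraries, with the library as a block (edgeR's quasi-likelihood test, Benjamini-Hochberg adjustment over all genes tested, threshold 0.05). Of 27 members tested in at least 1 of the 6 gates, 23 passed in at least 1. Single gates called 11.4% to 29% of all genes tested. The share of all genes that passed in at least 1 gate was not counted, so the 23 is not a result about the family. The log2 fold changes and adjusted p-values for gates all come from this test. For edgeR, SE is an approximate standard error of the log2 fold change over 4 libraries. It is the absolute log2 fold change divided by the square root of the test's F statistic.

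Cells of the Ccl21a-high gate carried more of several clade A serpins. Of 26 members tested 12 were higher and 4 lower, where 29% of all genes tested passed, 14.5% higher and 14.5% lower, and the median log2 fold change was 0.33 over the members and 0.00 over all genes. Serpina3n (ENSMUSG00000021091, mm10 chromosome 12, 104406729 to 104414329, plus strand), a secreted inhibitor of serine proteases known from acute-phase and glial responses, was at 510.5 and 421 CPM in controls 1 and 2 and 409 and 266 CPM in Notch2 cKO 1 and 2 in this gate, against 103 to 261 CPM in fibroblast-like cells of no subset gate. It was higher in the gate by 1.23 (SE 0.17, adjusted p = 0.00119) on the log2 scale. Serpina10 (ENSMUSG00000061947, mm10 chromosome 12, 103614786 to 103631444, minus strand), the protein Z-dependent inhibitor of coagulation factor Xa, was at 409 and 334 CPM in controls 1 and 2 and 218 and 262 CPM in Notch2 cKO 1 and 2 and higher by 1.01 (SE 0.06, adjusted p = 1.89e-05). Control 1 was highest and Notch2 cKO 1 lowest there. Serpinb6b, an intracellular member, showed the largest rise of the gate (log2 1.56, SE 0.15, adjusted p = 0.000185), with 61.1 to 127 CPM against 27.0 to 40.3 in cells of no subset gate. Serpine2 (protease nexin 1, an inhibitor of thrombin and plasminogen activators) was nearly missing, at 0.868 to 6.54 CPM, with a log2 fold change of -3.13 (SE 0.30, adjusted p = 0.000215). Serpinf1 was lower too, at -1.14 (SE 0.17, adjusted p = 0.00175). Leaving out control 2 lowered the count of members called from 16 to 10.

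The Pi16/Dpp4 gate looked the opposite. Of 23 members tested 5 were higher and 15 lower (27.3% of all genes tested passed, 11.8% higher and 15.5% lower), and the median log2 fold change was -1.37 over the members against -0.07 over all genes. Serpinb6a (ENSMUSG00000060147, mm10 chromosome 13, 33917918 to 34002794, minus strand), a cytosolic inhibitor of trypsin-like proteases and cathepsin G, was at 598 and 532 CPM in controls 1 and 2 and 541 and 608 CPM in Notch2 cKO 1 and 2 in this gate. The 4 libraries lay close together. All were above the 137 to 165 CPM of cells of no subset gate. The rise was 1.90 (SE 0.11, adjusted p = 5.02e-07). Serpinf1 (ENSMUSG00000000753, mm10 chromosome 11, 75409769 to 75422701, minus strand), an anti-angiogenic secreted protein that binds collagen, was at 523 and 778 CPM in controls 1 and 2 and 693 and 982 CPM in Notch2 cKO 1 and 2, which gave 1.73 (SE 0.17, adjusted p = 2.01e-05). Serpine2 rose by 1.50 (SE 0.33, adjusted p = 0.00494). Serpina3c rose by 0.67 (SE 0.21, adjusted p = 0.0325) and Serpinh1 by 0.53 (SE 0.11, adjusted p = 0.00435). On the other side, Serpina10 had a log2 fold change of -2.33 (SE 0.14, adjusted p = 4.97e-07) and Serpinb6b of -2.33 (SE 0.16, adjusted p = 1.42e-06). That of Serpina3g was -2.23 (SE 0.18, adjusted p = 3.66e-06) and that of Serpina3n -1.47 (SE 0.13, adjusted p = 7.89e-06). With all cells thinned to 1000 UMIs, a Serpinb6a UMI was found in 43.8% and 40.3% of cells in controls 1 and 2 and 41.0% and 44.8% in Notch2 cKO 1 and 2 in this gate, and in 13.1% and 11.6% of cells in controls 1 and 2 and 11.7% and 14.7% in Notch2 cKO 1 and 2 in the Ccl21a-high gate. Without thinning the Pi16/Dpp4 shares were 67.2%, 94.4%, 73.3% and 92.0% in the same order. Leukocyte-gated cells, with median depths of 1652 to 3717 UMIs against 1926 to 9337 in the Pi16/Dpp4 gate, had a Serpinb6a UMI in 0.526% to 5.69% after thinning.

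**Figure D2:**
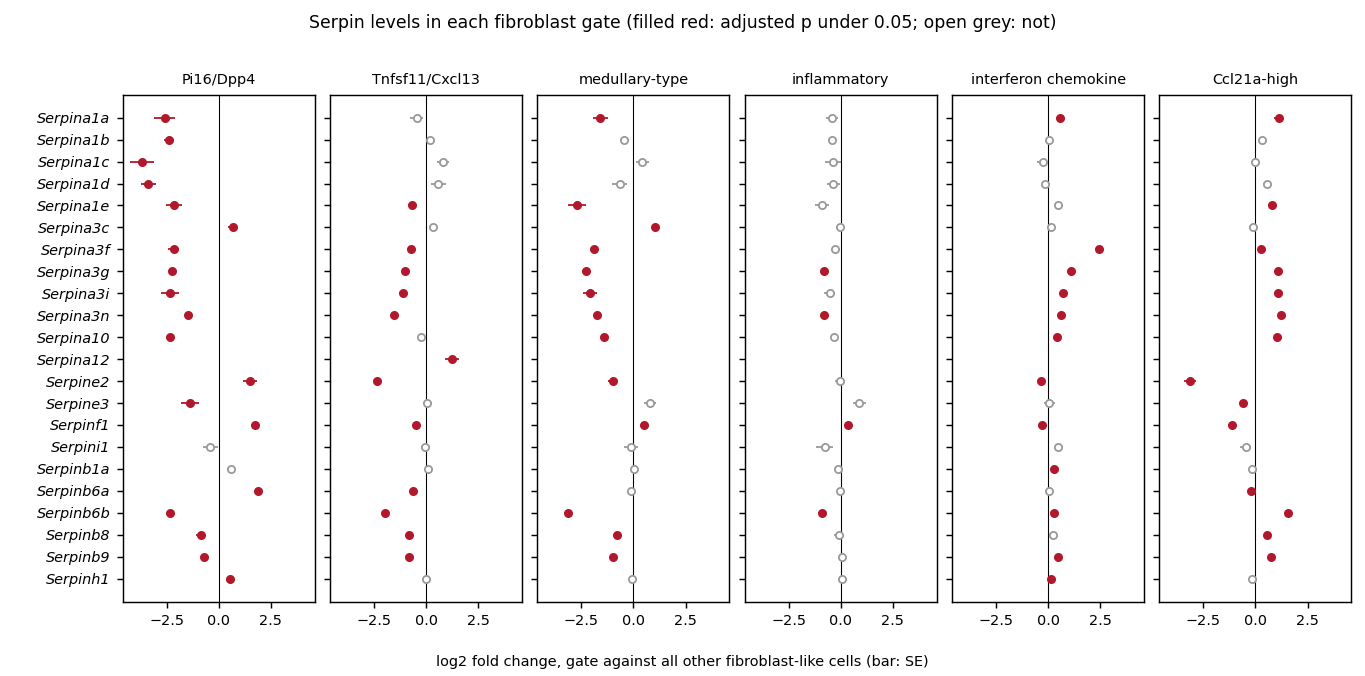
Log2 fold change (point) with its standard error (bar) of 22 serpins in each of 6 fibroblast gates against all other fibroblast-like cells, with filled red points for adjusted p under 0.05. The Pi16/Dpp4, Tnfsf11/Cxcl13 and medullary-type panels lie mostly left of 0, while the filled clade A points of the interferon-chemokine and Ccl21a-high panels lie right of 0.

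Part of the Serpina3 cluster was higher in the interferon-chemokine gate, Serpina3f most of all. Of 24 members tested 10 were higher and 2 lower (14.2% of all genes tested passed, 8.21% higher and 6.02% lower), with a median log2 fold change of 0.24 over the members and -0.01 over all genes. Serpina3f (ENSMUSG00000066363, mm10 chromosome 12, 104214544 to 104221129, plus strand) was at 230.2 and 156 CPM in controls 1 and 2 and 73.7 and 223 CPM in Notch2 cKO 1 and 2 in this gate, against 7.36 to 29.2 CPM in cells of no subset gate, and rose by 2.44 (SE 0.11, adjusted p = 2.14e-13). Notch2 cKO 1 was the lowest of the 4 libraries and still above every library of the cells of no subset gate. Serpina3g (ENSMUSG00000041481, mm10 chromosome 12, 104236245 to 104241939, plus strand), an intracellular inhibitor of cathepsin-type proteases induced by interferon gamma in several cell types, was at 318 and 205 CPM in controls 1 and 2 and 277 and 412 CPM in Notch2 cKO 1 and 2, a rise of 1.09 (SE 0.07, adjusted p = 2.39e-10). Serpina3n rose less, by 0.61 (SE 0.06, adjusted p = 1.02e-07), and Serpina3i by 0.70. In the Ccl21a-high gate the log2 fold change was 0.28 for Serpina3f, 1.08 for Serpina3g, 1.10 for Serpina3i and 1.23 for Serpina3n. The rises of Serpina3g, Serpina3i and Serpina3n were thus not particular to the interferon-chemokine gate. Serpinb9, the cytosolic inhibitor of granzyme B, rose by 0.47 (SE 0.05, adjusted p = 1.04e-06), and Serpina10 by 0.44 (SE 0.06, adjusted p = 1.25e-05). Cells of this gate also carried more of the T-zone chemokine list than the medullary-type or Tnfsf11/Cxcl13 gates (119.8 to 169 UMIs per 10000 against 36.6 to 94.3), and the part of that in the result was not tested.

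The stretches before the transcription starts of Serpina3f, Serpina3g and Serpina3n are printed because the 3 genes lie in 1 cluster on chromosome 12 and rose to different degrees in that gate. They are the 250 bases before the RefSeq start (GRCm38.p6, the mm10 assembly), 5′ to 3′ on the gene's strand, with matches to the interferon gamma-activated site TTCNNNGAA in capitals. This motif reads the same on both strands.
Serpina3f (chr12:104214294-104214543, plus strand): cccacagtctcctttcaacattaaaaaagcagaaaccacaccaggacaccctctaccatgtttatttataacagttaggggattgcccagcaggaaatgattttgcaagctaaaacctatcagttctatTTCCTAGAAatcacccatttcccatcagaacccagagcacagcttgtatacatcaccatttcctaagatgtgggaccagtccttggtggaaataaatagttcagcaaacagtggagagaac
Serpina3g (chr12:104235897-104236146, plus strand): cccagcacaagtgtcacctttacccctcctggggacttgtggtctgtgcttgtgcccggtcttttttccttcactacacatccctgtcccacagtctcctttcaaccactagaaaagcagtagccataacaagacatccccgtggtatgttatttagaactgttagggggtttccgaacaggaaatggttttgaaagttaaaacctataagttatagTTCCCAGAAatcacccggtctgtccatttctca
Serpina3n (chr12:104406458-104406707, plus strand): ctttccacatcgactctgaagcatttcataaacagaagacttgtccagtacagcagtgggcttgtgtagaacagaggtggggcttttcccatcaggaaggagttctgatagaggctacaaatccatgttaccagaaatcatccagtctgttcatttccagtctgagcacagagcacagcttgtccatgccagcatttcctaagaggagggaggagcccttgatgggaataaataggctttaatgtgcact
Serpina3f held 1 match, 121 bases before the start shown (RefSeq lists another start), Serpina3g held 1 match, 33 bases before it, and no match lay in the window of Serpina3n. Of 32851 RefSeq windows of this length 7.02% held the motif. Among members it also occurred in the windows of Serpina1f, Serpina3i, Serpina11, Serpinb2, Serpinb6a and Serpinb9c. RefSeq entries were found for 53 of the 60 members. The other 2 motifs searched did not separate the 3 genes. TGGGAA, the core letters bound by RBPJ, or its reverse complement TTCCCA lay in each of the 3 windows and in 21.6% of all windows, and the interferon-stimulated response element, searched as GAAA, any 2 bases and GAAA on either strand, in none of the 3 and in 2.98% of all. Serpina3i and Serpinb6a, which hold the interferon gamma-activated site, had log2 fold changes of 0.70 and 0.03 in the interferon-chemokine gate, against 0.61 for Serpina3n without it. A match is a run of letters and was not tested for binding.

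In the other gates more members were called lower than higher. In the medullary-type gate 2 of 24 members were higher and 12 lower (20.9% of all genes tested passed, 8.91% higher and 12% lower). Serpina3c, a clade A member, was at 22.6 and 22.8 CPM in controls 1 and 2 and 27.6 and 30.3 CPM in Notch2 cKO 1 and 2 there, a rise of 1.01 (SE 0.14, adjusted p = 3.13e-05), and Serpinf1 rose by 0.51 (SE 0.09, adjusted p = 0.000471). Serpinb6b fell by 3.16 (SE 0.18, adjusted p = 1.9e-09). Serpina3g fell by 2.28 (SE 0.17, adjusted p = 4.03e-08) on the log2 scale. In the Tnfsf11/Cxcl13 gate 1 of 25 was higher and 11 were lower (19.6% of all genes tested passed, 7.49% higher and 12.1% lower). Serpine2 fell by 2.37 (SE 0.13, adjusted p = 2.59e-09) and Serpina3n by 1.56 (SE 0.10, adjusted p = 1.41e-08). The rise was in Serpina12 (vaspin), at 1.06 to 3.7 CPM, with 1 UMI in each library of batch 1 and 12 and 38 in control 2 and Notch2 cKO 2. In the inflammatory gate 1 of 24 was higher and 3 were lower (11.4% of all genes tested passed, 6.84% higher and 4.57% lower). Library-size scaling in place of TMM moved the median of all genes there by more than in the other gates, from -0.03 to -0.20, and with it 0 members were higher and 8 lower, so that the rise of Serpinf1 (log2 0.35, SE 0.10, adjusted p = 0.0278) was lost.

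For the small gates and those outside the fibroblasts, levels are given without a test. Serpini1 (neuroserpin, an inhibitor of tissue plasminogen activator) was at 88.8 and 34.2 CPM in controls 1 and 2 and 40.4 and 24.4 CPM in Notch2 cKO 1 and 2 in pericyte-gated cells, of which batch 1 held 15 and 18 and batch 2 held 600 and 362 (2 and 1 UMIs in batch 1 and 74 and 38 in batch 2, control first), against 0.124 to 4.65 CPM in the Ccl21a-high gate. Serpine2 was at 48.1 CPM in control 2 and 227 in Notch2 cKO 2 in Schwann-gated cells (58 and 61 cells with 9 and 45 UMIs, none in batch 1). Serpinb5 (maspin), a marker of epithelia chosen for mention after its values were seen, was at 66.6 and 117 CPM in controls 1 and 2 and 68.8 and 99.1 CPM in Notch2 cKO 1 and 2 in epithelial-gated cells and at 0.07 CPM or less in the sum of fibroblast-like cells of each library. In follicular dendritic-gated cells (40 and 16 cells in batch 2), which are part of the fibroblast-like sum, Serpina1e was at 114 CPM in control 2 and 45.8 in Notch2 cKO 2, against 2.47 and 12.4 CPM in the separate cells of no subset gate of those libraries. Serpinb1a, a cytosolic inhibitor of neutrophil elastase, led the leukocyte-gated cells of batch 2 at 89.0 and 119.8 CPM.

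Between the genotypes, no member was called in all fibroblast-like cells. Of 30 members tested by edgeR (quasi-likelihood, a batch term in the model, Benjamini-Hochberg over 17518 genes) 0 passed, where 1.51% of all genes tested passed, 0.965% higher and 0.542% lower. At an unadjusted p under 0.05, 4 members were higher and 3 lower in Notch2 cKO, against 928 and 1039 of all 17518 genes. The median log2 fold change was 0.01 over the members and 0.02 over all genes. DESeq2 with batch called 2.67% of all genes tested, 1.48% higher and 1.18% lower. Among them were 2 members, both lower in Notch2 cKO. These were Serpinb8 (log2 fold change -1.24, SE 0.37, adjusted p = 0.0285) and Serpina3f (-1.31, SE 0.40, adjusted p = 0.0375). Serpina12 (vaspin) had the lowest adjusted p of the members in edgeR. It was at 0.05 and 0.379 CPM in controls 1 and 2 and 0.577 and 2.18 CPM in Notch2 cKO 1 and 2, with a log2 fold change of 2.60 (SE 0.52, adjusted p = 0.0689). Its level was higher in Notch2 cKO within each batch. In a sum over gates, a changed mix of cells and a changed level within cells cannot be told apart, and the Pi16/Dpp4 gate held 122 and 447 cells of controls 1 and 2 and 371 and 251 of Notch2 cKO 1 and 2. Without that gate's cells Serpina12 (log2 2.59, SE 0.51, adjusted p = 0.0315) was called higher by the same edgeR test. Serpinb8 (log2 -1.20, SE 0.25, adjusted p = 0.0393) and Serpine3 (log2 -1.92, SE 0.41, adjusted p = 0.0424) were called lower, where 3.05% of all genes tested passed, 1.76% higher and 1.29% lower.

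Within the Ccl21a-high gate 4 of 27 members were called, 2 higher and 2 lower in Notch2 cKO, where 5.61% of all genes tested passed, 2.93% higher and 2.68% lower (edgeR, same test). The median log2 fold change was -0.08 over the members and 0.02 over all genes. All 4 calls were lost without the batch term, as were those of the other genotype comparisons below. Leaving out any single library, which also removes that term, ended all 4 too, and without Notch2 cKO 2 another member, Serpina1d, passed instead.

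Serpinf1 rose in these cells. It was at 67.4 and 85.5 CPM in controls 1 and 2 and 210.4 and 178 CPM in Notch2 cKO 1 and 2, and both Notch2 cKO libraries were above both controls. The rise was 1.28 (SE 0.24, adjusted p = 0.0072) by the same edgeR test, and the log2 difference was 1.66 in batch 1 and 0.96 in batch 2. In all fibroblast-like cells Serpinf1 was at 170.1 and 183 CPM in controls 1 and 2 and 316 and 248 CPM in Notch2 cKO 1 and 2, also without overlap, but missed the threshold (log2 0.62, SE 0.23, adjusted p = 0.342). Serpina12, an adipokine-like member, was at 0 and 0.113 CPM in controls 1 and 2 and 0.763 and 2.43 CPM in Notch2 cKO 1 and 2, so its log2 fold change of 4.37 (SE 0.76, adjusted p = 0.00387) rests on few UMIs and depends on the prior count.

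Serpinb8 and Serpina3f moved the other way in Ccl21a-high cells. Serpinb8 (ENSMUSG00000026315, mm10 chromosome 1, 107590006 to 107610484, plus strand), an intracellular inhibitor of furin-type proteases, was at 28.1 and 20.9 CPM in controls 1 and 2 and 8.18 and 10.1 CPM in Notch2 cKO 1 and 2. Both controls were above both Notch2 cKO libraries, and it fell by 1.45 on the log2 scale (SE 0.23, adjusted p = 0.00192, edgeR). Serpina3f was at 83.2 and 64.9 CPM in controls 1 and 2 and 17.2 and 40.1 CPM in Notch2 cKO 1 and 2, again without overlap, and fell by 1.50 (SE 0.29, adjusted p = 0.00742, edgeR), a call lost with library-size scaling (adjusted p = 0.0666). Its log2 difference was -2.24 in batch 1 and -0.79 in batch 2. The summed interferon-chemokine markers were also lower in Notch2 cKO in this gate, at 5.75 and 6.25 UMIs per 10000 in the controls and 5.11 and 4.28 in Notch2 cKO. These markers fell more in batch 2 than in batch 1. The T-zone chemokine list ran at 269 and 280 in the controls and 205 and 262 in Notch2 cKO, and pericyte markers at 11.0 and 11.1 against 6.99 and 8.41. Inflammatory markers ran at 2.84 and 5.68 in the controls and 2.07 and 2.39 in Notch2 cKO. Their part in these results was not tested.

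**Figure D3:**
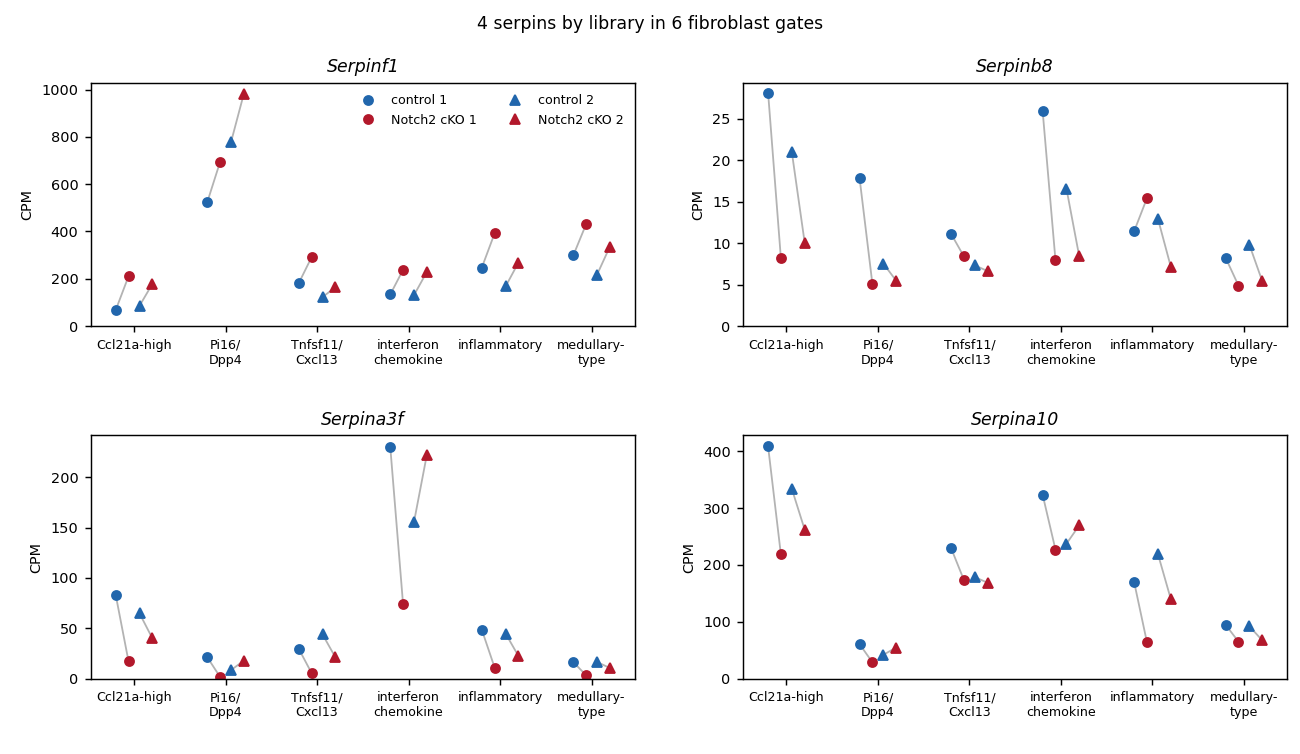
CPM of 4 serpins in 6 fibroblast gates, with blue for control, red for Notch2 cKO, circles for batch 1, triangles for batch 2 and a grey line joining the libraries of a batch. Serpinf1 is higher in Notch2 cKO in each batch in all 6 gates, Serpina10 is lower in each batch in the Ccl21a-high, Tnfsf11/Cxcl13, inflammatory and medullary-type gates, and Serpina3f is higher in Notch2 cKO 2 than in control 2 in the interferon-chemokine and Pi16/Dpp4 gates.

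In the other gates fewer members were tested, and fewer were called. In the inflammatory gate, which held 460 and 1331 cells of the controls and 141 and 129 of Notch2 cKO, 3 of 14 members were called (1.47% of all genes tested passed, 0.917% higher and 0.557% lower, edgeR). Serpina10 was at 169.6 and 219 CPM in controls 1 and 2 and 63.8 and 140.2 CPM in Notch2 cKO 1 and 2 there and fell by 1.01 (SE 0.28, adjusted p = 0.0346), Serpina3f fell by 1.41 (SE 0.37, adjusted p = 0.0161), and Serpina1b was called higher. DESeq2 called none of the 3, and edgeR with library-size scaling called no member. The gate's own markers stood at 70.1 and 64.4 UMIs per 10000 in the controls and 65.9 and 45.9 in Notch2 cKO, and their part in these results was not tested. In the Tnfsf11/Cxcl13 gate 3 of 25 were called (1.6% of all genes tested passed, 0.664% higher and 0.941% lower, edgeR). Serpina3f was at 29.6 and 43.9 CPM in controls 1 and 2 and 5.59 and 21.2 CPM in Notch2 cKO 1 and 2 and fell by 1.31 (SE 0.34, adjusted p = 0.0111). Serpine3 passed narrowly (log2 fold change -1.75, SE 0.52, adjusted p = 0.04996) with no UMI in either library of batch 1, and Serpina1b was higher. DESeq2 gave Serpina1b an adjusted p of 1 and the other 2 none. With library-size scaling, which moved the median of all genes from 0.01 to 0.12, the calls turned from 1 higher and 2 lower to 3 higher and 1 lower. Serpine3 was lost, and Serpina1a (log2 fold change 1.82, adjusted p = 0.0357) and Serpina1e (1.92, adjusted p = 0.0392) were called higher by edgeR. In the Pi16/Dpp4 gate only Serpina1b of 15 was called (0.537% of all genes tested passed, 0.307% higher and 0.23% lower, edgeR), and DESeq2 called none.

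No member of 20 was called by edgeR in the interferon-chemokine gate, where 1.55% of all genes tested passed, 0.95% higher and 0.597% lower. At an unadjusted p under 0.05, 3 members were higher and 1 lower, against 600 and 683 of all 11898 genes. Nor was any member of 15 called in the medullary-type gate, where 0.303% of all genes tested passed, 0.229% higher and 0.0734% lower. There 2 members were higher and 2 lower at an unadjusted p under 0.05, against 286 and 339 of all 10899 genes. DESeq2 called 0 in both. Serpina3f, the member with the largest rise in the interferon-chemokine gate against other cells, was lower in Notch2 cKO in batch 1 there and higher in batch 2 (log2 difference -1.64 in batch 1 and 0.36 in batch 2).

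Whether a genotype difference was larger in Ccl21a-high than in other fibroblast-like cells was tested as an interaction in edgeR, with the gate-by-batch term. Those other cells are a sum over gates whose sizes differed between libraries. The inflammatory gate held 460 and 1331 cells of controls 1 and 2 and 141 and 129 of Notch2 cKO 1 and 2. A changed mix of the other cells and a changed level within cells cannot be told apart in this test. Of 29 members 6 were called, where 6.7% of all genes tested passed, 3.9% higher and 2.81% lower. Serpinf1 (log2 0.77, SE 0.09, adjusted p = 4.2e-05) and Serpinh1 (log2 0.27, SE 0.07, adjusted p = 0.0228) shifted upward in the Ccl21a-high gate relative to the rest. Serpina1a (log2 -0.87, SE 0.20, adjusted p = 0.0115), Serpina3n (log2 -0.74, SE 0.08, adjusted p = 9.2e-06), Serpinb6b (log2 -0.73, SE 0.09, adjusted p = 2.85e-05) and Serpina3f (log2 -0.39, SE 0.09, adjusted p = 0.0127) shifted downward. For Serpina3n the level in Notch2 cKO was below control in each batch in the gate (log2 difference -0.30 in batch 1 and -0.76 in batch 2). In cells of no subset gate it was at 157 and 103 CPM in controls 1 and 2 and 261 and 152 CPM in Notch2 cKO 1 and 2, where Notch2 cKO was above control in each batch. Serpinf1 and Serpinb6b kept their call without the gate-by-batch term, and the other 4 lost it. The stricter gate ended the call of Serpina3f (adjusted p = 0.131), and library-size scaling that of Serpinh1 (0.0628), with edgeR in each.

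One library stood apart in the alpha-1-antitrypsin copies. Summed over Serpina1a to Serpina1e, all fibroblast-like cells had 18.2 and 36.4 CPM in controls 1 and 2 and 684 and 59.98 CPM in Notch2 cKO 1 and 2. Notch2 cKO 1 was far above the other 3 libraries, and Notch2 cKO 2 was above its own control by less. Serpina1b was at 9.76 and 26.02 CPM in controls 1 and 2 and 565 and 36.7 CPM in Notch2 cKO 1 and 2. Serpina1d was at 0.604 and 1.15 CPM in controls 1 and 2 and 75.5 and 1.85 CPM in Notch2 cKO 1 and 2, and Serpina1c at 0.503 and 0.913 CPM in controls 1 and 2 and 25.4 and 0.951 CPM in Notch2 cKO 1 and 2. The log2 difference of Serpina1b was 5.86 in batch 1 and 0.44 in batch 2, and its log2 fold change of 3.06 (SE 1.34, adjusted p = 0.467) did not pass edgeR's test.

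The excess was present in each fibroblast gate of that library. In Ccl21a-high cells Serpina1b was at 9.67 and 26.2 CPM in controls 1 and 2 and 789.7 and 37.0 CPM in Notch2 cKO 1 and 2, and after thinning a UMI was found in 0.95% and 2.51% of cells in controls 1 and 2 and 48.2% and 3.58% in Notch2 cKO 1 and 2 (2.19%, 18.2%, 77.8% and 27.6% without thinning). Within Notch2 cKO 1, epithelial-gated cells (15 cells) had no Serpina1b UMI, which so few cells make a weak limit. Leukocyte-gated cells stood at 20.5 CPM with 3.32% of cells after thinning, and the 18 pericyte-gated cells at 971 CPM. The calls of Serpina1b in the Pi16/Dpp4 gate (log2 2.51, SE 0.44, adjusted p = 2.13e-05), the Tnfsf11/Cxcl13 gate (log2 1.54, SE 0.28, adjusted p = 8.69e-06) and the inflammatory gate (log2 2.40, SE 0.37, adjusted p = 1.46e-06) by edgeR all include that library. Within batch 2 the log2 difference in these 3 gates was 1.55, 0.43 and 0.57, against 4.55, 4.47 and 6.01 in batch 1. Leaving out Notch2 cKO 1 or either control, in fits that also lack the batch term, ended all 3 calls. Without Notch2 cKO 1 the log2 fold changes were 1.80, 0.64 and 1.27.

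**Figure D4:**
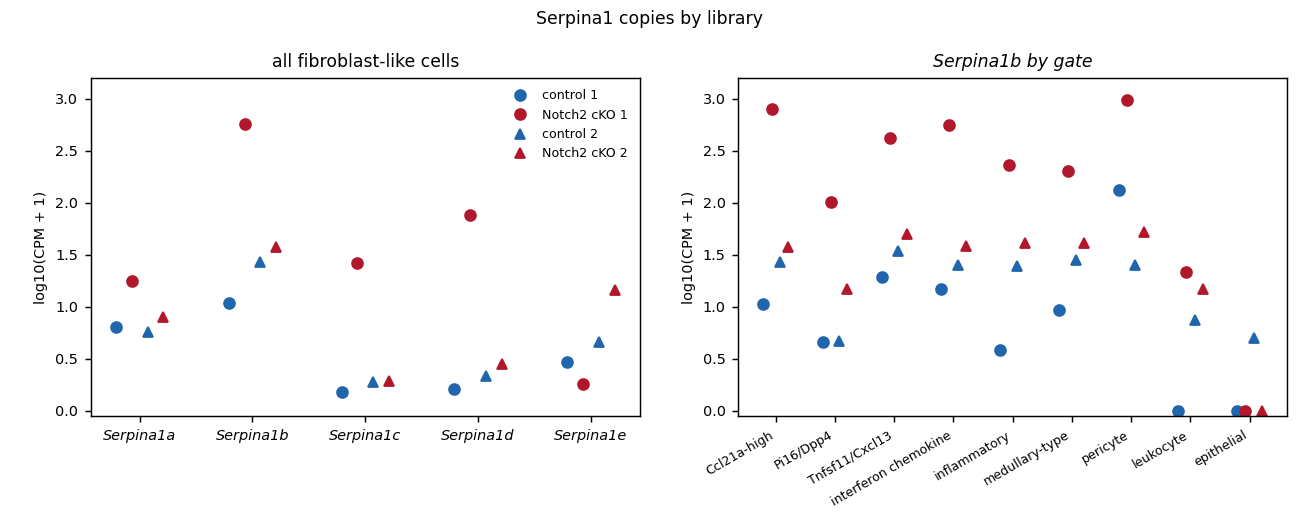
Levels of the 5 Serpina1 copies in all fibroblast-like cells (left) and of Serpina1b in 9 gates (right), as log10(CPM + 1), with 1 point per library. Notch2 cKO 1 (red circles) is the highest library for Serpina1a, Serpina1b, Serpina1c and Serpina1d and for Serpina1b in each gate shown but the epithelial one, and the lowest for Serpina1e.

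Serpina1e followed another pattern. It was at 1.96 and 3.58 CPM in controls 1 and 2 and 0.825 and 13.6 CPM in Notch2 cKO 1 and 2, with Notch2 cKO 2 the highest library and Notch2 cKO 1 the lowest, so that the log2 difference was -1.21 in batch 1 and 1.86 in batch 2. In the 250 bases before the start, Serpina1e was 72.4% to 77.6% identical to the other copies, which were 88.0% to 93.2% identical to each other. The groups of batch 1 were not littermates and those of batch 2 were, and with 1 library per group in each batch genotype, breeding and pool cannot be told apart here.

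**Figure D5:**
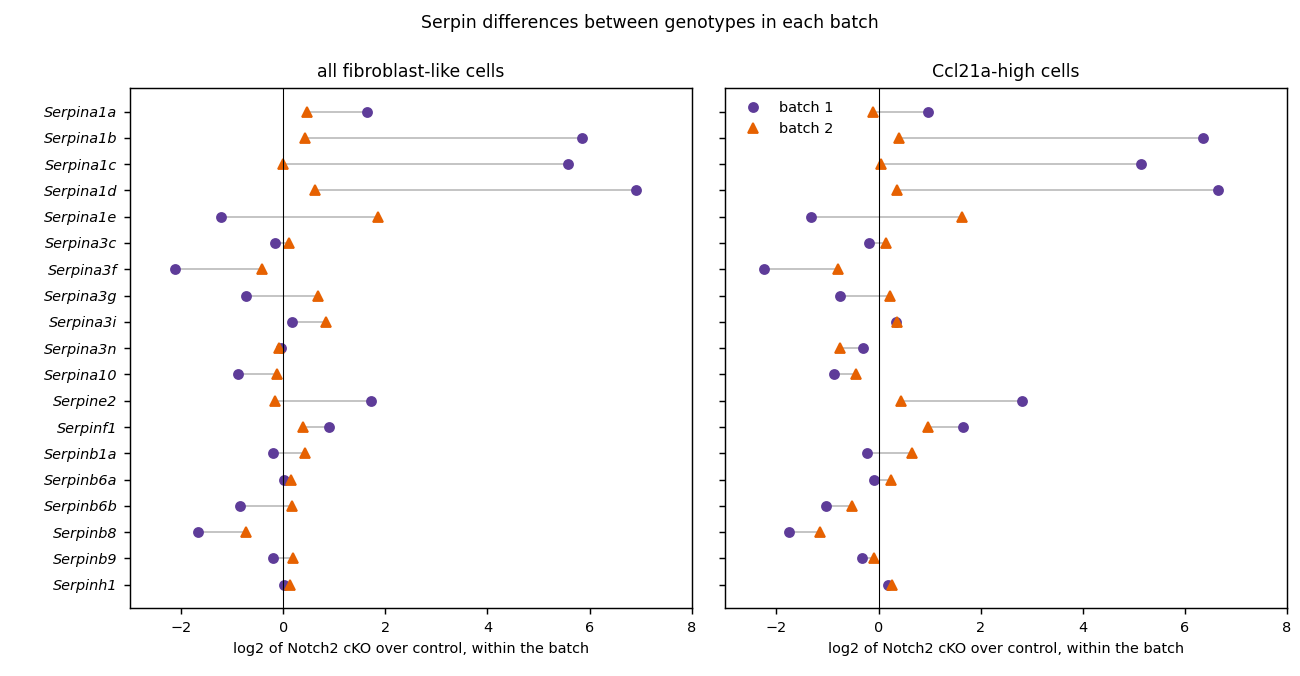
Log2 difference of Notch2 cKO over control within batch 1 (purple circles) and batch 2 (orange triangles) for the 19 serpins at 10 CPM or more in a library, in all fibroblast-like cells (left) and Ccl21a-high cells (right), with a prior of 2 counts. Serpinf1, Serpinb8 and Serpina3f keep their side of 0 in both batches, Serpina1b, Serpina1c and Serpina1d lie far to the right in batch 1 only, and Serpina1e and Serpina3g are among those on opposite sides.

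The remaining expressed members showed no call between genotypes in all fibroblast-like cells. Serpinb6a was at 155 and 144 CPM in controls 1 and 2 and 155 and 168 CPM in Notch2 cKO 1 and 2, with a log2 fold change of 0.06 (SE 0.19, adjusted p = 0.968) by edgeR. Serpinb9 was at 94.6 and 65.5 CPM in controls 1 and 2 and 81.6 and 77.7 CPM in Notch2 cKO 1 and 2, and Serpina3n at 328 and 198 CPM in controls 1 and 2 and 316 and 196 CPM in Notch2 cKO 1 and 2. They had log2 fold changes of -0.03 and -0.08, and for both the batches differed more than the groups. Serpina3g was at 183 and 131 CPM in controls 1 and 2 and 110.0 and 218 CPM in Notch2 cKO 1 and 2, lower in Notch2 cKO in batch 1 and higher in batch 2. Serpina10 was at 281 and 209.8 CPM in controls 1 and 2 and 152 and 200.3 CPM in Notch2 cKO 1 and 2, with the Notch2 cKO libraries below both controls and an adjusted p of 0.511 by edgeR. Serpine2 was at 4.53 and 29.2 CPM in controls 1 and 2 and 14.8 and 27.4 CPM in Notch2 cKO 1 and 2, where batch 2 was the higher in both groups. Serpinb6b was at 74.4 and 45.9 CPM in controls 1 and 2 and 40.9 and 54.0 CPM in Notch2 cKO 1 and 2. Serpinb1a was at 35.5 and 28.5 CPM in controls 1 and 2 and 30.9 and 40.1 CPM in Notch2 cKO 1 and 2, and in both the groups overlapped.

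The members at low levels that passed a test in some gate were read in the same cells. Serpina1a was at 5.38 and 4.78 CPM in controls 1 and 2 and 16.7 and 6.91 CPM in Notch2 cKO 1 and 2, with Notch2 cKO 1 the highest library. Serpina3c was at 15.9 and 12.0 CPM in controls 1 and 2 and 14.1 and 13.5 CPM in Notch2 cKO 1 and 2, where batch 1 was the higher in both groups. Serpina3i was at 5.94 and 5.89 CPM in controls 1 and 2 and 6.68 and 11.0 CPM in Notch2 cKO 1 and 2, Serpina3m at 0.16 to 0.99 CPM and Serpinb1b, a copy of Serpinb1a, at 2.76 to 4.76, with 107 UMIs of Serpina3m over the 4 libraries. Serpine3 was at 0.05 and 9.44 CPM in controls 1 and 2 and 0 and 2.8 CPM in Notch2 cKO 1 and 2 and nearly missing in batch 1. Serpinb8 was at 22.6 and 14.5 CPM in controls 1 and 2 and 7.05 and 9.13 CPM in Notch2 cKO 1 and 2. Serpina3f was at 71.0 and 52.7 CPM in controls 1 and 2 and 16.2 and 41.1 CPM in Notch2 cKO 1 and 2. For both members each control was above each Notch2 cKO library, with adjusted p of 0.0947 and 0.204 by edgeR.

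Genes that act with the serpins were read from 3 lists. Of 20 plasminogen system and serpin partner genes, 0 rose and 2 fell in all fibroblast-like cells of Notch2 cKO (edgeR, as above), with a median log2 fold change of -0.04 against 0.02 over all genes, where 1.51% of all genes tested passed, 0.965% higher and 0.542% lower. Vtn, vitronectin, an adhesive glycoprotein of plasma and matrix, fell by 1.62 (SE 0.24, adjusted p = 0.0287), and Procr, the endothelial protein C receptor, by 1.48 (SE 0.26, adjusted p = 0.0423). In Ccl21a-high cells 2 of 18 rose and 3 fell (median -0.01), where 5.61% of all genes tested passed, 2.93% higher and 2.68% lower. Among them were Plat, tissue plasminogen activator, with 1.47 (SE 0.31, adjusted p = 0.0144), and Vtn with -1.70 (SE 0.27, adjusted p = 0.00218). Of 14 collagen folding partners of Serpinh1, 2 rose and 0 fell in all fibroblast-like cells (median 0.18). These were P4ha3, a prolyl hydroxylase subunit (log2 3.11, SE 0.40, adjusted p = 0.0174), and Plod2, a lysyl hydroxylase (log2 1.21, SE 0.19, adjusted p = 0.0338), while Serpinh1 itself had a log2 fold change of 0.05 (SE 0.26, adjusted p = 0.979). Of 12 tested of 16 other secreted protease inhibitors, 1 rose and 1 fell (median 0.09). A2m, alpha-2-macroglobulin, rose by 6.32 (SE 0.28, adjusted p = 0.000976), and Pi15, a peptidase inhibitor of the CAP family, fell by 1.94 (SE 0.18, adjusted p = 0.00828).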

How the data were processed

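The deposited matrices hold raw UMI counts per gene and barcode, which the authors made with Cell Ranger, per the file headers, version 5.0.1 for batch 1 and 7.1.0 for batch 2. The submitters' processing notes name 5.0.1 and build mm10 for all. Intron counting and cell calling were not given in the sources used here. For control 2 the title and the genotype label differ on Ccl19-Cre, and the latter, which lacks it, was followed. The protocol names the 10x 3′ kit v3.1.

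Total UMIs were 21533049 to 119002408 per library. Cells with at least 500 genes, at least 1000 UMIs and at most 10% mitochondrial UMIs were kept (7817 to 17014 per library). Gates used UMIs of fixed marker lists: lineages by 2 or 3 markers, fibroblast-like cells by 20 UMIs per 10000 of 6 fibroblast genes, Ccl21a-high cells by 100 per 10000, with thresholds set after marker levels had been seen. No doublet caller was run. Cells meeting 2 lineage gates were removed (40 to 395 per library), as were ungated cells. UMIs were summed per library and gate and tested with edgeR 4.0.16 (R 4.3.3, quasi-likelihood, TMM, filterByExpr, adjusted p threshold 0.05 by Benjamini-Hochberg). Genotype fits held a batch term and had 1 residual degree of freedom. The procedure was tested on simulated data. DESeq2 1.42.0 was an alternative. A prior of 2 counts went into log2 differences within a batch. Library numbers pair the samples because the labels state that they mark batches. Deviations of same-batch libraries correlated at 0.64 to 0.82 across genes, which are not independent replicates. Sequences came from GENCODE M21 and RefSeq tables, and all 60 members with values were found in the annotation. The remaining 1 of 61 stayed in the fits over all genes and is not reported here. Alternatives included scaling, filters, gates and leaving out each library. The text names members at 20 CPM in at least 1 library of all fibroblast-like cells or in at least 2 libraries of a gate, members called in a comparison, and per partner list the lowest adjusted p-values. The members and lists were chosen with earlier results of these data known.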

Additional observations from a re-analysis of the deposited data

Results flagged for a closer look

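For 6 members the interaction test of edgeR called a genotype difference in Ccl21a-high cells unlike that in the sum of other fibroblast-like cells. The mix of gates in that sum differed between libraries, and 4 of the calls were lost without the gate-by-batch term. The log2 difference between the 2 genotype effects was 0.27 for Serpinh1 and 0.77 for Serpinf1. It was -0.87 for Serpina1a, -0.39 for Serpina3f, -0.74 for Serpina3n and -0.73 for Serpinb6b.

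For 2 members of at least 10 CPM the batches went opposite ways by at least 0.5 on the log2 scale in all fibroblast-like cells, and the difference between batches was not tested. Serpina1e had a log2 difference of -1.21 in batch 1 and 1.86 in batch 2. Serpina3g had -0.72 in batch 1 and 0.67 in batch 2.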

How the results depend on the processing

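Over 95 member results and 737 alternatives with a value, 540 kept direction and side of the threshold, 197 kept direction but missed it, and 0 reversed. Most of these results are levels between gates, and the genotype results were less stable. Of the genotype results with a value, DESeq2 kept 3 past the threshold and lost 5, and library-size scaling kept 6 and lost 5. Without the batch term 11 were lost. Batch 1 was the shallower. No genotype call of a member held without the batch term, and the fits with that term had 1 residual degree of freedom. The cause of each change was not tested.

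Without a replicate block (the batch term, by which the libraries are paired), edgeR called 0 members in each genotype comparison, and 0 genes in all in both all fibroblast-like and Ccl21a-high cells. For levels between gates, dropping the library block gave 8 members called against 20 in the Pi16/Dpp4 gate, 1 against 12 in the Tnfsf11/Cxcl13 gate, 0 against 12 in the interferon-chemokine gate, 0 against 4 in the inflammatory gate, 4 against 14 in the medullary-type gate and 1 against 16 in the Ccl21a-high gate. The interaction kept 2 of 6 without the gate-by-batch term.

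For genotype in all fibroblast-like cells, where 0 members and 264 genes were called, library-size scaling called 0 members and 40 genes, DESeq2 2 and 467, no filter on low counts 8 and 837, and the stricter cell filter 0 and 112. Leaving out 1 library (without the batch term) gave 0 to 3 members and 0 to 17 genes, and without the Pi16/Dpp4 cells, an alternative chosen after seeing the data, 3 members were called. In Ccl21a-high cells (4 members, 824 genes), no filter gave 10 members and 1373 genes, the stricter cell filter 9 members, leaving out cells of highest UMI count 7 members, DESeq2 530 genes, and leaving out 1 library 0 to 1 member and 0 to 2 genes.

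In the Pi16/Dpp4 gate the count of 1 went to 0 with DESeq2, the stricter gate and without cells of highest UMI count, and to 0 or 1 without 1 library. In the Tnfsf11/Cxcl13 gate the count of 3 (1 higher, 2 lower) went to 4 with library-size scaling (3 higher, 1 lower), to 0 with DESeq2, to 1 with the stricter gate and to 0 to 1 without 1 library. In the interferon-chemokine gate the count of 0 became 1 with the stricter gate, 6 with no filter and 2 with the stricter cell filter. In the inflammatory gate the count of 3 went to 0 with library-size scaling or DESeq2, 1 with the stricter cell filter, and 0 without any 1 library. In the medullary-type gate the count of 0 became 1 with no filter or without cells of highest UMI count. For levels between gates, the inflammatory gate had 8 members called with library-size scaling and 7 with the stricter gate against 4, and the Ccl21a-high gate 10 to 17 with 1 library left out.

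With library-size scaling the median of all genes moved to 0.12 in the Tnfsf11/Cxcl13, 0.11 in the interferon-chemokine and 0.11 in the medullary-type genotype tests. The share of calls that were higher moved from 64.0% to 85.0% (genotype, all fibroblast-like), 41.4% to 58.6% (genotype, Tnfsf11/Cxcl13), 62.2% to 76.3% (genotype, inflammatory), 57.7% to 29.2% (interferon-chemokine gate), from 964 of 1608 to 25.8% (inflammatory gate) and 49.9% to 36.5% (Ccl21a-high gate).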
